A study of Mus musculus with 2 samples.

Results

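The genes described here are the immunoglobulin kappa V genes, the rows whose symbol begins with Igkv: 160 of the 32285 genes in the files, of which the annotation lists 100 as functional and 60 as pseudogenes. They were read in 2 single-cell RNA libraries of mouse aortic CD45+ leukocytes, white cells gated on a surface antigen they share. 1 library is labelled as treated with ZnDPA@siIRF5, by its name an siRNA preparation directed at the transcription factor IRF5, and the other as the control group. How many animals entered each library, their strain or alleles, age and sex, and what the controls were given are not stated in the labels used here. Each group is 1 library, so no difference between the libraries has a replicate check, and none was tested.

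Each developing B cell builds its kappa light chain by joining 1 V gene of the Igk locus to 1 J gene, upstream of the constant gene Igkc. V genes lie in both orientations, so the joining either deletes or inverts the DNA between them. Normally 1 functional light chain is kept per cell, and all descendants of that cell carry the same V gene, so the V gene marks relatives as well as choice. Plasma cells, the antibody-secreting end stage, hold far more of this mRNA than B cells do. The kit counts the 3′ end of transcripts, and the V exon lies at the 5′ end of the kappa mRNA.

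Barcodes had to hold at least 500 detected genes and at most 15% mitochondrial UMIs (unique molecular identifiers, 1 per captured molecule). Those with at least 20 UMIs of Jchain and Mzb1 together were taken as plasma cells, and the remaining ones with at least 2 UMIs of Cd79a and Cd79b together as B cells. The treated-labelled library held 497 plasma cells (3.99% of 12466 kept barcodes) and 1097 B cells. The control-labelled library held 1565 plasma cells (13.0% of 12038) and 1901 B cells. Irf5, the gene targeted by the treatment, was not lower in the treated-labelled library: it stood at 27.3 against 23.7 CPM (UMIs scaled to the total of the class) in plasma cells and 68.6 against 55.0 CPM in B cells, so it gives no check of the labels, and directions follow the labels. The median plasma cell held 18174 UMIs in the treated-labelled library and 18075 in the control-labelled library. Of the markers not used by the rule, Xbp1 was found in 93.2% and 94.0% of plasma cells, and Ebf1, a B cell factor, in 41.9% and 53.5%, so cells with B cell transcripts are part of this class. Neutrophil markers reached 2 UMIs in 66.2% and 49.6% of plasma cells, and the part of free RNA or mixed droplets in the results was not tested.

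The V exons of the genes that led the libraries show how far related genes can be told apart, which matters here because a cell is assigned to a gene by its reads. They are given 5′ to 3′ on the coding strand, from GENCODE vM21 on GRCm38, with the last 300 bases where the exon is longer. Capitals mark the bases that differ from the named partner or have no counterpart in its exon: Igkv1-110 and Igkv1-117 against each other, Igkv4-91 and Igkv4-79 against each other, and Igkv6-20 against Igkv6-29. The annotated exon of Igkv6-29 is 295 bases long and that of Igkv6-20 is 298, and bases without a counterpart lower the identity given.
Igkv1-110: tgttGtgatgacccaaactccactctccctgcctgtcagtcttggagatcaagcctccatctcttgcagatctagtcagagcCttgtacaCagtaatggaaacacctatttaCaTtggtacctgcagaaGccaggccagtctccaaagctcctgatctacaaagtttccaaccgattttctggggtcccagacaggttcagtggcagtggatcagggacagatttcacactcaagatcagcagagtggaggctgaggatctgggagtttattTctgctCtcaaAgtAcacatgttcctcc
Igkv1-117: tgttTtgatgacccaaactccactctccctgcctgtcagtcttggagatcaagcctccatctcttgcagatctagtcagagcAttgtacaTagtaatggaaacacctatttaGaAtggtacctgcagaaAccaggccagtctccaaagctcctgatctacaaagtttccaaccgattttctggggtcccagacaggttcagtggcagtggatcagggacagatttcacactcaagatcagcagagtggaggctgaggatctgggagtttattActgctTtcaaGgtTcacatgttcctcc
Igkv4-91: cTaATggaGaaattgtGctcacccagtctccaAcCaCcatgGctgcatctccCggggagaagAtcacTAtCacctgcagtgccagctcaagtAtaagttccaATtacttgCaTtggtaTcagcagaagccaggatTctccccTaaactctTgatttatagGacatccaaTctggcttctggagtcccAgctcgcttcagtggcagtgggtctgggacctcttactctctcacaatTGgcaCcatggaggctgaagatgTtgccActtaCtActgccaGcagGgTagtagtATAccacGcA
Igkv4-79: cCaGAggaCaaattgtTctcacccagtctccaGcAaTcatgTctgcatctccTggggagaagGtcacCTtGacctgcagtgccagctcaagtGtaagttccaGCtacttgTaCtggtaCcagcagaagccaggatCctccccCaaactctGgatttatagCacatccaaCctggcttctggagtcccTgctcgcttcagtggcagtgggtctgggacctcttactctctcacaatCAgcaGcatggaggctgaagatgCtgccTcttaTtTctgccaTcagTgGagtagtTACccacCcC
Igkv6-20: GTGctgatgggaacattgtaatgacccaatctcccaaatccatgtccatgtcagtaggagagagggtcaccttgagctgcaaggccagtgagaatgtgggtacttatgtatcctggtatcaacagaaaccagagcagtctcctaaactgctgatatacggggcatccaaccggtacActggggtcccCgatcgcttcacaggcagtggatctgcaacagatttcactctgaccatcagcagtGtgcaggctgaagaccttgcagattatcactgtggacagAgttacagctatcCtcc
Igkv1-110 (chr6:68270968-68271267, plus strand) and Igkv1-117 (chr6:68121528-68121827, plus strand) were 96.8% identical over the V exon and differed at 10 bases. Igkv4-91 (chr6:68768555-68768854, minus strand) and its nearest gene Igkv4-79 (chr6:69042972-69043271, minus strand) were 86.4% identical. Igkv6-20 (chr6:70335841-70336138, minus strand) was 97.3% identical to Igkv6-29, its nearest gene, which held 0 UMIs in plasma cells of the treated-labelled library and 2 in those of the control-labelled library. Over the 100 functional genes, the median identity to the nearest gene was 94.2%, and 45 genes had a neighbour at 95% or more. Reads of such genes could have been split or dropped in counting, so single-gene values are uncertain to that extent.

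Kappa V transcripts were found in most plasma cells and in few other cells. Of the plasma cells, 407 (81.9%) had an Igkv UMI in the treated-labelled library and 1357 (86.7%) in the control-labelled library. The share was 12.9% and 12.7% of B cells, whose median depth was 5351 and 4611 UMIs. In barcodes of neither class, which should lack the gene, it was 1.49% and 4.29% at median depths of 4421 and 4149 UMIs. The plasma cell share thus stood far above that background in both libraries, and the background itself was higher in the control-labelled library, where the median barcode of neither class also held 10 Igkc UMIs against 3.

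The V part of the kappa message was thinly sampled. Plasma cells held 5659 Igkv UMIs in the treated-labelled library and 13756 in the control-labelled library, a median of 7 and 6 per cell, beside medians of 5069 and 5633 UMIs of Igkc. That is 1.92 and 1.44 Igkv UMIs per 1000 Igkc UMIs. The Igkj genes held 0 UMIs in plasma cells of either library. Of the 160 genes, 74 were detected in plasma cells of the treated-labelled library (69 functional, 5 pseudogenes) and 90 in those of the control-labelled library (83 functional, 7 pseudogenes). Pseudogenes held 0.406% and 0.284% of the Igkv UMIs in plasma cells.

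A plasma cell was assigned to a V gene where it had at least 10 Igkv UMIs and 1 gene held at least 50% of them. In the treated-labelled library 191 plasma cells (38.4%) were assigned, and in the control-labelled library 523 (33.4%). The leading gene held a median of 93.8% and 95.2% of the Igkv UMIs of cells with enough of them, so most Igkv UMIs of these cells came from 1 gene. With a minimum of 3 UMIs, 332 and 1081 cells were assigned. Values at both minimums are given below, because V genes differed in how many UMIs they gave per Igkc and the higher minimum favours the better-sampled genes.

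Different V genes led the libraries. In the treated-labelled library, Igkv4-91 led with 24 of 191 cells, 12.6% (95% Clopper-Pearson interval 8.22 to 18.1%), followed by Igkv6-20 with 20 cells (10.5%) and Igkv1-135 with 19 cells (9.95%). In the control-labelled library, Igkv1-110 led with 102 of 523 cells, 19.5% (16.2 to 23.2%), followed by Igkv1-117 with 58 cells (11.1%). All intervals given for cells and shares cover counting error only, and cells descended from 1 ancestor are not independent.

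**Figure D1:**
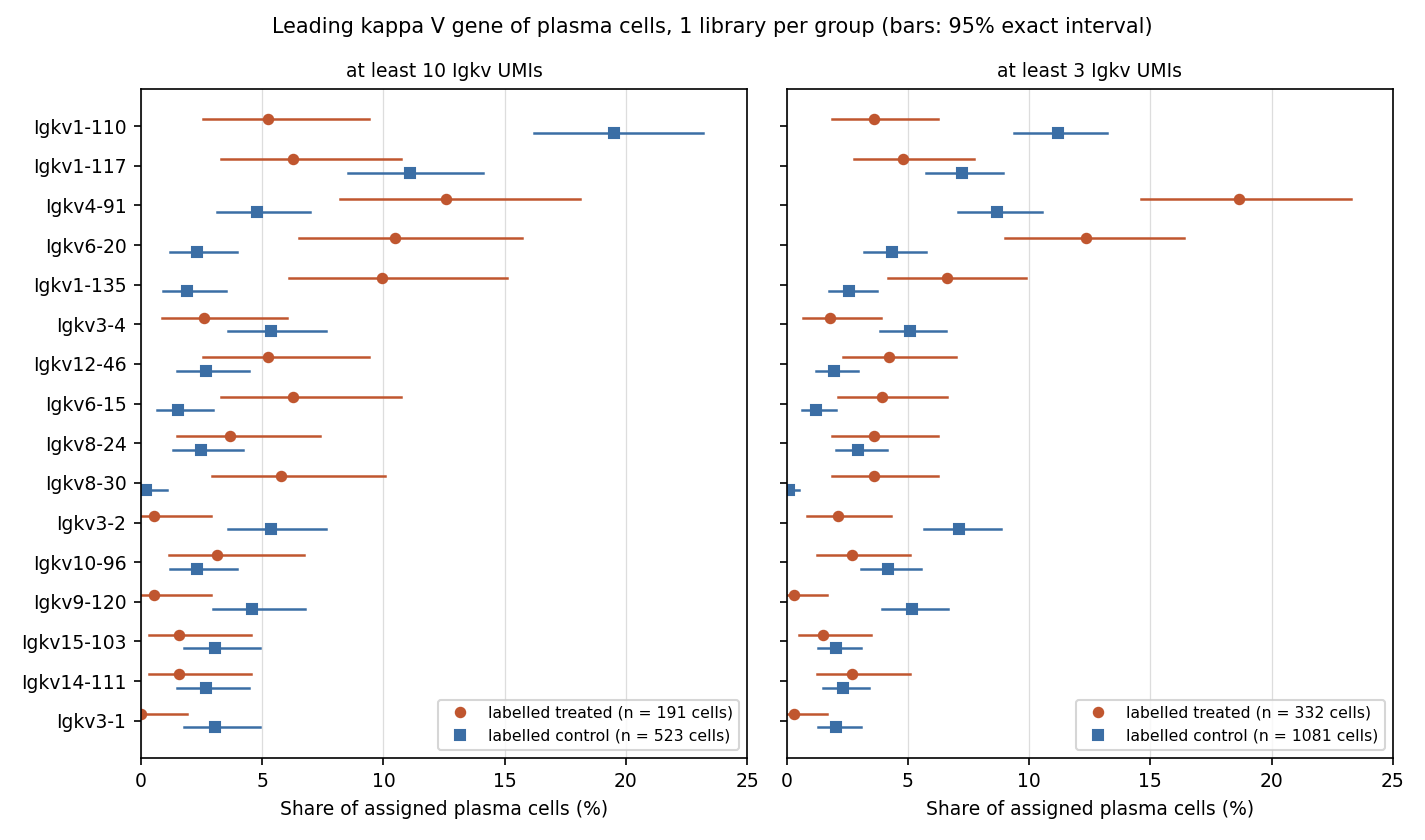
Share of assigned plasma cells (%) led by each of 16 named kappa V genes, in the treated-labelled library (circles) and the control-labelled library (squares), at a minimum of 10 (left) and 3 (right) Igkv UMIs; bars are 95% exact intervals. Igkv1-110 lies to the right in the control-labelled library, and Igkv4-91, Igkv6-20 and Igkv1-135 in the treated-labelled library, at both minimums.

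Igkv1-110 held 5.24% of assigned plasma cells in the treated-labelled library (10 cells, 2.54 to 9.42%) against 19.5% in the control-labelled library. With a minimum of 3 UMIs it held 3.61% (12 cells) against 11.2% (121 cells), and the intervals did not overlap at either minimum. By UMIs it held 3.92% and 17.1% of all Igkv UMIs in plasma cells. Igkv1-117, its close relative, held 6.28% (12 cells, 3.29 to 10.7%) against 11.1% (8.53 to 14.1%), with intervals that overlapped.

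Igkv4-91 went the other way, with 12.6% in the treated-labelled library and 4.78% (25 cells, 3.12 to 6.98%) in the control-labelled library. At a minimum of 3 UMIs it held 18.7% (62 cells, 14.6 to 23.3%) and 8.70% (94 cells, 7.08 to 10.5%). Igkv6-20 held 10.5% (6.51 to 15.7%) and 2.29% (12 cells, 1.19 to 3.97%). It gave few UMIs for its constant gene, 0.887 and 1.11 Igkv UMIs per 1000 Igkc UMIs in its own cells, beside 2.84 and 2.15 in cells of Igkv1-110. At the minimum of 3 its share was 12.3% (41 cells) and 4.35% (47 cells). Igkv1-135, the third gene of the treated-labelled library, held 9.95% (6.10 to 15.1%) there and 1.91% (10 cells, 0.921 to 3.49%) in the control-labelled library. For Igkv4-91, Igkv6-20 and Igkv1-135 the intervals of the libraries did not overlap at either minimum.

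Several genes were rare in 1 of the libraries. Igkv8-30 led 11 cells (5.76%) of the treated-labelled library and 1 cell of the control-labelled library. Where 1 gene had to hold 80% of a cell's Igkv UMIs, 4 of 148 cells (2.70%) and 1 of 446 were left to it, and among the 22 and 121 assigned cells without markers of T cells, macrophages or neutrophils it led 0 and 0. Igkv6-15 led 12 cells (6.28%) and 8 cells (1.53%). In the other direction, Igkv9-120 led 1 cell against 24 and Igkv3-2 led 1 against 28. For these 4 genes the intervals of the libraries did not overlap. Like the genes above, they were named for their rank or ratio in these same data, so a lack of overlap is no test. Igkv3-1 led 0 cells against 16, and a count of 0 among 191 cells allows a share of up to 1.57% (3 counts of the total). Its exact interval, 0 to 1.91%, overlapped that of the control-labelled library (3.06%, 1.76 to 4.92%). Igkv3-4 led 5 cells (2.62%) against 28 (5.35%), with overlapping intervals. Shares of Igkv8-24 (3.66% and 2.49%), Igkv10-96 (3.14% and 2.29%), Igkv15-103 (1.57% and 3.06%), Igkv14-111 (1.57% and 2.68%) and Igkv12-46 (5.24% and 2.68%) had overlapping intervals.

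Shares of UMIs were less firm than shares of cells, because single cells held many UMIs. Igkv6-15 had the most Igkv UMIs of the treated-labelled library, 595 or 10.5%, but 42.2% of them came from 1 cell. Igkv5-48 had 283 UMIs in only 2 plasma cells there, with 88.3% in 1 cell. In Igkv12-46 1 cell held 47.0% of the UMIs. For Igkv4-91 the highest cell held 6.21% of the UMIs in the treated-labelled library, and for Igkv1-110 2.0% in the control-labelled library.

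Summed per library, Igkv transcripts as a whole stood at 589 CPM in the treated-labelled library and 443 in the control-labelled library, and Igkc differed by a log2 ratio of -0.01. Among the 45 Igkv genes with at least 50 UMIs in either library, 30 were at least 2-fold apart, 16 higher and 14 lower in the treated-labelled library. Of all 10830 genes measured so in plasma cells, 5.98% were at least 2-fold apart, 3.06% higher and 2.93% lower. A V gene could pass the minimum through 1 library and few cells. Igkv7-33 held 73 UMIs in the treated-labelled library, 69 of them in 1 cell, and 0 in the control-labelled library. How many of the 30 genes rest on few cells was not counted, so the 2 shares are not alike in kind. The median log2 ratio was -0.05 over the Igkv genes and -0.06 over all genes. Of the 27 heavy chain V genes measured, 21 were at least 2-fold apart, 7 higher and 14 lower. Among the named kappa genes the log2 ratio of CPM was 2.10 for Igkv1-135, 1.55 for Igkv6-20, 1.28 for Igkv4-91, -1.71 for Igkv1-110 and -2.40 for Igkv9-120. For Igkv1-117 and Igkv3-2 it was -0.61 and -0.53, under 2-fold.

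Lists of related genes were set beside these. Of 7 other light chain genes (Igkc and the lambda constant and V genes), 0 were at least 2-fold apart. The same held for 10 genes of the plasma cell program, 2 of which the cell rule used. Of 13 transcription factors that act on immunoglobulin promoters and enhancers or in B cells, 1 was, Pax5, at a log2 ratio of -1.16. Of 7 genes of V(D)J recombination and the surrogate light chain, 1 could be measured, Vpreb3, at -1.09. Of 8 heavy chain constant genes Igha was higher (1.42), and Ighg2b (-1.18), Ighg3 (-1.26) and Ighe (-3.69) were lower. Ighe held 72 and 2999 UMIs, and it was the leading heavy constant gene of only 0 and 3 plasma cells.

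At equal cell numbers the libraries used about as many V genes. Assigned plasma cells used 40 genes in the treated-labelled library and 50 in the control-labelled library, and 38.4 are expected in 191 cells of the latter. The 10 leading genes held 68.6% and 62.1% of assigned cells. The inverse Simpson index, the number of equally used genes that would give the same evenness, was 18.1 and 14.7. This order did not hold at the minimum of 3 UMIs, where it was 14.8 and 21.8.

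Along the locus, the genes of switched cells lay more often far from the J genes in the control-labelled library, while those of IgM cells did so about equally in both. The V genes span 3167 kb of chromosome 6 up to Igkj1, cut here into 3 parts of equal length. The distal part, with 26 functional genes, held 29.8% (23.5 to 36.9%) of assigned plasma cells in the treated-labelled library and 49.1% (44.8 to 53.5%) in the control-labelled library. The proximal part, with 42 functional genes, held 50.8% and 40.0%, and the middle part, with 32, held 19.4% and 10.9%. Among cells expressing IgM, the class made before any switch, the distal share was 26% of 96 cells (17.6 to 36%) and 25% of 136 (18 to 33.1%). Among cells switched to another class it was 33.7% of 95 (24.3 to 44.1%) and 57.6% of 387 (52.5 to 62.6%). The proximal share was 44.8% and 52.9% of IgM cells, with overlapping intervals and in the other order than over all cells, and 56.8% and 35.4% of switched cells. Igkv1-110 and Igkv1-117 are both distal, at 2451 and 2601 kb from Igkj1, Igkv4-91 lies in the middle at 1953 kb, and Igkv6-20 is proximal at 386 kb. Igkv1-110 and Igkv1-117 led 99 and 55 of the 223 distal switched cells in the control-labelled library. In the treated-labelled library they led 7 and 10 of 32. Both are on the plus strand, so the same cells enter the shares by strand. Genes on the plus strand led 36.1% (29.3 to 43.4%) of cells in the treated-labelled library and 65.6% (61.3 to 69.7%) in the control-labelled library, and this order held within IgM cells (26% and 57.4%) and switched cells (46.3% and 68.5%). At the minimum of 3 UMIs the distal shares were 23.8% and 37.1%.

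**Figure D2:**
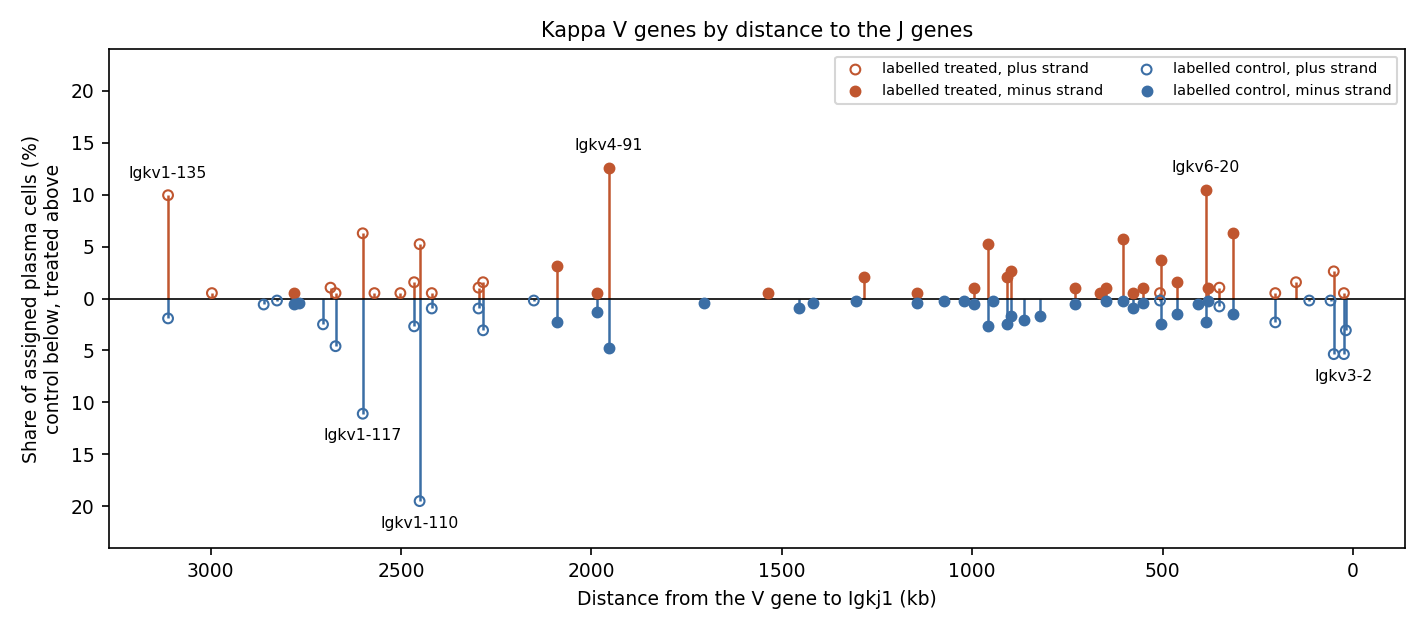
Share of assigned plasma cells (%) for each kappa V gene by its distance to Igkj1 (kb, J side to the right), treated above and control below the line; open circles are genes on the plus strand. The distal peak of Igkv1-110 and Igkv1-117 belongs to the control-labelled library, and the peaks of Igkv1-135, Igkv4-91 and Igkv6-20 to the treated-labelled library.

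By family, family 1 held 22% of assigned plasma cells in the treated-labelled library and 35.0% in the control-labelled library, and family 3 held 5.24% and 16.4%. Within isotype classes these 2 families behaved differently. Family 1 held 24.2% and 43.9% of switched cells but 19.8% and 9.56% of IgM cells, the other order with overlapping intervals. Family 3 held 10.5% and 11.4% of switched cells. Among IgM cells it led 0 of 96 in the treated-labelled library and 42 of 136 (30.9%) in the control-labelled library. The count of 0 allows up to 3.13% (3 counts of the total), with an exact upper limit of 3.77%. Family 6 held 20.9% and 6.50%, family 4 held 15.7% and 7.46%, and family 8 held 12% and 4.78%. Family 6 was higher in the treated-labelled library in IgM cells (22.9% and 8.82%) and switched cells (18.9% and 5.68%), and family 8 mainly in switched cells (20% and 5.43%, against 4.17% and 2.94% of IgM cells). Single genes made up much of this. Igkv6-20 led 20 of the 22 family 6 IgM cells in the treated-labelled library and 8 of 12 in the control-labelled library. Igkv6-15 led 10 of its 18 switched cells and 7 of 22. Igkv8-30 led 10 of the 19 switched cells of family 8 and 0 of 21. Family 4 is the largest by number, with 26 functional genes, yet Igkv4-91 alone led 24 of its 30 assigned cells in the treated-labelled library and 25 of 39 in the control-labelled library. Family 1 has 10 functional genes. Igkv1-110 and Igkv1-117 led 102 and 58 of its 183 assigned cells in the control-labelled library. In the treated-labelled library they led 10 and 12 of 42.

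The V genes split by heavy chain isotype, the constant gene that a plasma cell expresses most. Ighm led in 54.9% (50.4 to 59.4%) of plasma cells in the treated-labelled library and 34.8% (32.5 to 37.2%) in the control-labelled library. An IgG gene led in 32.8% and 60.8%, and Igha in 12.1% and 4.15%. Cells with a constant gene other than Ighm or Ighd have switched class, a step that B cells take after activation. Since the isotype makeup differed, the shares of V genes are given within each isotype class too.

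Igkv4-91 and Igkv6-20 were mainly genes of IgM cells in both libraries. With a minimum of 3 UMIs, 61 of 62 Igkv4-91 cells were IgM in the treated-labelled library and 85 of 94 in the control-labelled library. For Igkv6-20 it was 41 of 41 and 39 of 47, and at the minimum of 10 UMIs 20 of 20 and 8 of 12. Within IgM cells, at the minimum of 10 UMIs, Igkv4-91 held 25% (16.7 to 34.9%) and 15.4% (9.82 to 22.6%), with overlapping intervals. Igkv6-20 held 20.8% (13.2 to 30.3%) and 5.88% (2.57 to 11.3%), without overlap. IgM cells used few V genes in the treated-labelled library, with an inverse Simpson index of 7.37 over 96 cells, against 13.3 over 136 cells in the control-labelled library.

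Igkv1-110 was a gene of switched cells in the control-labelled library. Of its 102 cells 81 were IgG (53 Ighg2c, 23 Ighg2b), 18 were IgA and 3 were IgM. Of its 10 cells in the treated-labelled library 6 were IgA, 1 was IgG and 3 were IgM. Within switched cells it held 7.37% (7 of 95 cells, 3.01 to 14.6%) and 25.6% (99 of 387 cells, 21.3 to 30.2%). The shares thus differed within this class too. This is no separate check, since 99 of its 102 cells in the control-labelled library were switched and are counted again. Within IgM cells it held 3.13% and 2.21%. Of the 58 Igkv1-117 cells of the control-labelled library 54 were IgG, 41 of them Ighg2c.

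Other genes differed in isotype between the libraries. Igkv12-46 led 10 IgM cells of 10 in the treated-labelled library and 2 IgM cells of 14 in the control-labelled library. Igkv3-2 led 60 IgM cells of 77 at the minimum of 3 UMIs in the control-labelled library, and 0 of 7 in the treated-labelled library. Igkv14-111 led 21 IgM cells of 25 in the control-labelled library and 1 of 9 in the treated-labelled library. Igkv8-30, found almost wholly in the treated-labelled library, led 10 Ighg2c cells of 12.

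**Figure D3:**
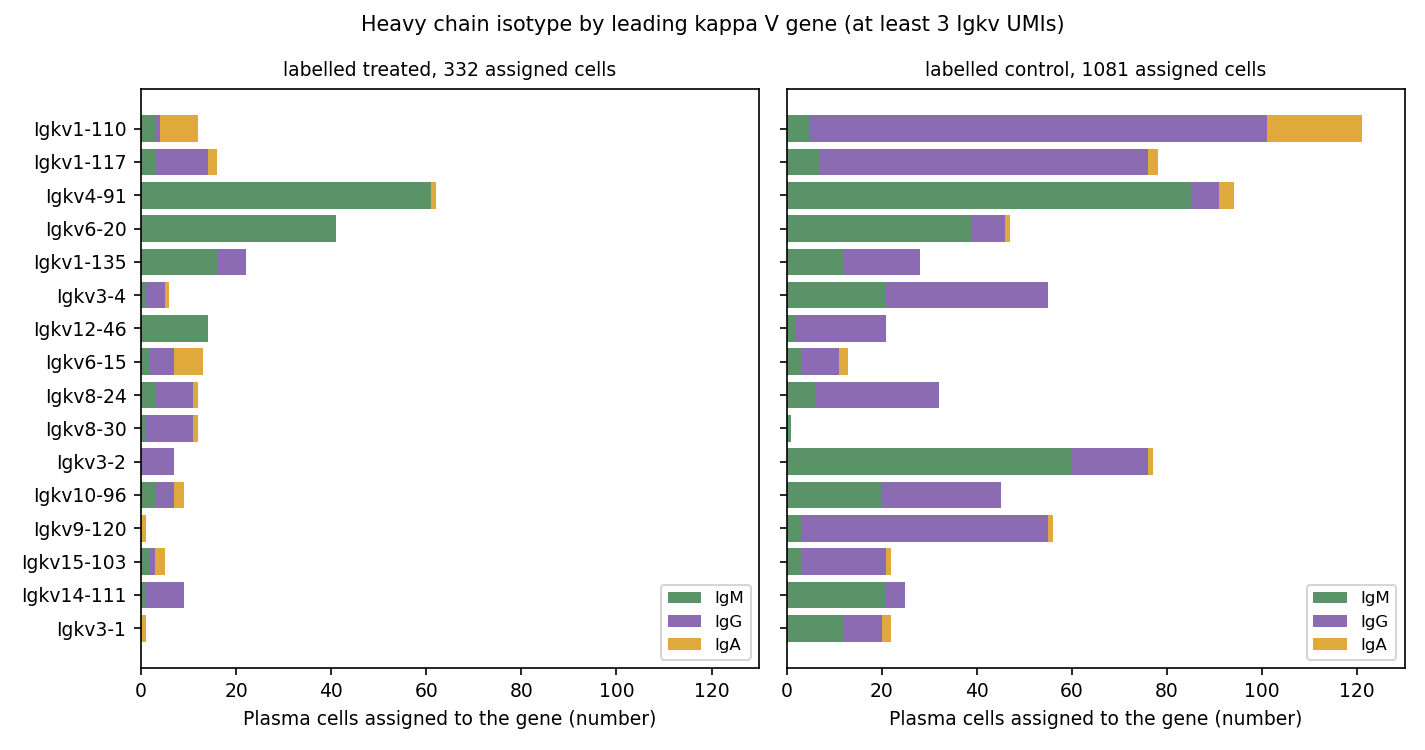
Number of plasma cells assigned to each of 16 kappa V genes (at least 3 Igkv UMIs), coloured by isotype, in the treated-labelled library (left, 332 cells) and the control-labelled library (right, 1081 cells). Igkv4-91 and Igkv6-20 are mostly IgM in both, and the 121 Igkv1-110 cells of the control-labelled library are mostly IgG.

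An antibody joins a kappa chain to a heavy chain, so plasma cells were also described by the pair of V genes they expressed most. A leading heavy chain gene, with at least 2 Ighv UMIs and at least 50% of them, was found in 268 plasma cells (53.9%) of the treated-labelled library and 892 (57.0%) of the control-labelled library. With a kappa gene at the minimum of 3 UMIs, 229 and 760 cells had a pair. These pairs are read from expression and not from sequenced junctions, so cells with 1 pair need not be 1 clone. There were 106 pairs in the treated-labelled library and 249 in the control-labelled library, and 16 pairs were found in both. The shared pairs were 15.1% of the pairs of the treated-labelled library and 6.43% of those of the control-labelled library, and they held 33.2% and 25% of the cells with a pair.

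The largest pair of all was Igkv1-110 with Ighv1-81, in 82 plasma cells of the control-labelled library (10.8%, 8.67 to 13.2%) and in 2 cells of the treated-labelled library (0.873%, 0.106 to 3.12%). In the control-labelled library 48 of these cells were Ighg2c, 19 Ighg2b and 15 Igha, and both cells of the treated-labelled library were Igha. The pair made up 86.3% of the Igkv1-110 cells with a heavy gene in the control-labelled library. The heavy gene was not tied to 1 kappa gene. Of the 118 control cells with Ighv1-81 and a kappa gene, 12 had Igkv1-117, of which 10 were Ighg2b, and 13 had Igkv1-122, all Ighg2b. Together with Igkv1-110 these 3 related genes made up 107 cells, 90.7%. Within these cells most UMIs of the 3 genes were of 1 gene. The 82 Igkv1-110 cells held 1698 UMIs of Igkv1-110, 29 of Igkv1-122, which is 93.6% identical to it, and 5 of Igkv1-117. The 12 Igkv1-117 cells held 203 UMIs of Igkv1-117 and 1 of Igkv1-110, and the 13 Igkv1-122 cells held 317 of Igkv1-122 and 1 of each of the others.

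Igkv4-91 with Ighv1-26 led the treated-labelled library, with 33 cells (14.4%, 10.1 to 19.6%), and was the second pair of the control-labelled library, with 45 cells (5.92%, 4.35 to 7.84%). The rank in the control-labelled library holds at the minimum of 3 UMIs: at the minimum of 10 this pair had 12 cells there, behind Igkv1-110 with Ighv1-81 (75), Igkv1-117 with Ighv1-55 (26), Igkv9-120 with Ighv8-8 (14), Igkv3-4 with Ighv3-6 (14) and Igkv1-122 with Ighv1-81 (13). All 33 and 43 of the 45 were Ighm. The pair made up 89.2% and 84.9% of the Igkv4-91 cells with a heavy gene, so the same partner prevailed in both libraries at these minimums. The heavy gene was called from as few as 2 Ighv UMIs, a minimum chosen after seeing the data. With at least 10 Ighv UMIs the pair held 0% in both libraries. Igkv6-20 with Ighv14-4 was found in 21 cells (9.17%) and 15 cells (1.97%), all Ighm. At the minimum of 10 Igkv UMIs the order of these pairs in the treated-labelled library was the other way, with 14 cells against 13. The Igkv6-20 pair made up 95.5% and 60.0% of the Igkv6-20 cells with a heavy gene. Igkv1-135 differed in its partner, since its leading heavy gene was Ighv10-1 in the treated-labelled library (10 cells, all Ighm, against 0) and Ighv9-3 in the control-labelled library (10 cells, against 3).

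**Figure D4:**
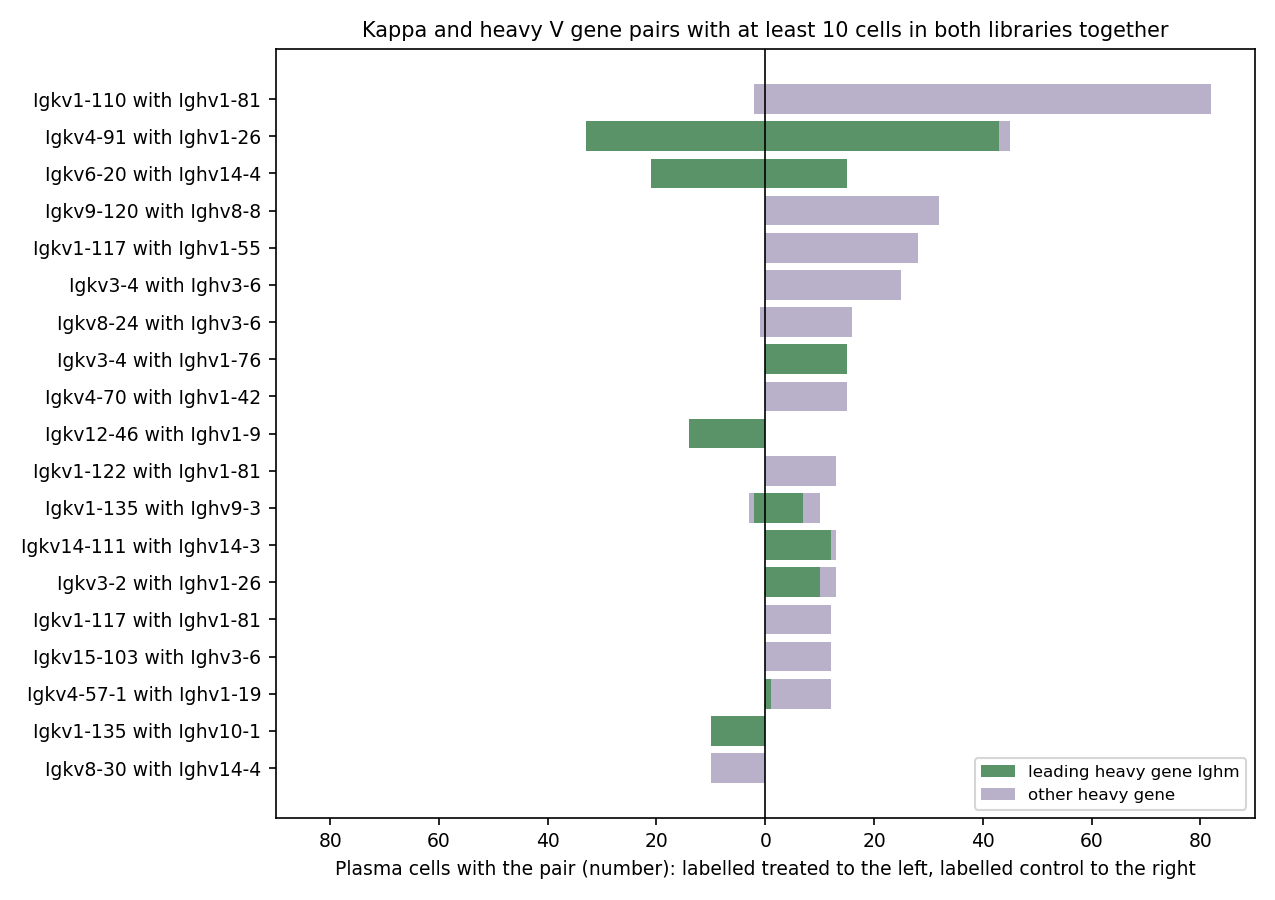
Number of plasma cells with each pair of leading kappa and heavy V genes, for the 19 pairs with at least 10 cells in both libraries together; the treated-labelled library extends to the left and the control-labelled library to the right, green for cells led by Ighm. Igkv4-91 with Ighv1-26 and Igkv6-20 with Ighv14-4 extend to both sides, and most other pairs to 1 side.

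Most other large pairs were found in 1 library. Igkv9-120 with Ighv8-8 was found in 32 control cells (20 Ighg2c, 12 Ighg2b), Igkv1-117 with Ighv1-55 in 28 (all Ighg2c), and Igkv3-4 with Ighv3-6 in 25 (16 Ighg1, 7 Ighg3, 2 Ighg2b), each against 0 in the treated-labelled library, where a count of 0 allows up to 1.31% of cells with a pair (3 counts of the total; exact upper limit 1.60%). Igkv12-46 with Ighv1-9 was found in 14 treated cells (all Ighm) and Igkv8-30 with Ighv14-4 in 10 (all Ighg2c), each against 0 in the control-labelled library, which allows up to 0.395% (3 counts; exact upper limit 0.484%). Ighv14-4 thus joined Igkv6-20 in IgM cells and Igkv8-30 in Ighg2c cells of the same library.

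Pairs known from natural antibodies, which bind phospholipids of dying cells and oxidised lipoproteins, were rare. Ighv12-3 with Igkv4-91, known to bind phosphatidylcholine, was found in 1 cell of the treated-labelled library and 4 cells of the control-labelled library, all Ighm. These were 1 of 37 and 4 of 53 Igkv4-91 cells with a leading heavy gene, so most of those had another partner. The remaining Igkv4-91 cells had no leading heavy gene. At the minimum of 10 Igkv UMIs the pair made up 0 of 13 and 3 of 18 such cells. Ighv11-2 with Igkv14-126, of the same specificity, was found in 0 and 2 cells. Ighv7-1 with Igkv7-33, the T15 pair that binds phosphorylcholine, was found in 0 cells of either library. Igkv19-93, a further gene of such antibodies, held 33 and 164 UMIs and led 1 and 7 assigned cells. Igkv7-33 held 73 UMIs in 2 plasma cells of the treated-labelled library, 69 of them in 1 cell whose leading heavy gene was Ighv3-6, and 0 UMIs in the control-labelled library.

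Some cells held UMIs of a V gene other than their own. A second gene with at least 3 UMIs was found in 39 of 191 assigned plasma cells (20.4%) in the treated-labelled library and 78 of 523 (14.9%) in the control-labelled library, and it was of the same family in 7 and 15 of them. Igkv3-2 was the most frequent, with a UMI in 41 of 190 cells of other genes (21.6%, 16 to 28.1%) in the treated-labelled library and in 58 of 495 (11.7%, 9.02 to 14.9%) in the control-labelled library. Igkv3-1 followed, in 30 of 191 (15.7%) and, level with Igkv10-96, in 43 of 507 (8.48%). Igkv3-1 and Igkv3-2 are the V genes nearest to the J genes, at 18.4 and 23.5 kb from Igkj1. In the treated-labelled library, cells assigned to Igkv3-1 at the minimum of 3 UMIs held only 2.34% of the 128 Igkv3-1 UMIs of plasma cells, and in the control-labelled library 67.7% of 483. In barcodes of neither class, Igkv3-1 held 0 and 8 UMIs and Igkv3-2 held 3 and 30. Whether these UMIs come from free RNA or mixed droplets was not tested.

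Plasma cells in which lambda constant genes led the light chain were 22 (4.43%, 2.79 to 6.63%) in the treated-labelled library and 75 (4.79%, 3.79 to 5.97%) in the control-labelled library. Of these, 18.2% and 42.7% had an Igkv UMI, against 84.8% and 88.9% of cells led by Igkc. Both shares in lambda-led cells were above those in barcodes of neither class, which were at lower depth.

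B cells gave too few Igkv UMIs for usage by cell: 191 in the treated-labelled library and 359 in the control-labelled library, with 2 and 9 cells assigned at a minimum of 5 UMIs. Igkv1-117 held the most UMIs in both, 25 (13.1%) and 60 (16.7%). It alone among Igkv genes reached 50 UMIs in B cells of either library, and it was not 2-fold apart (log2 ratio -0.61), beside 2.05% of the 10043 genes measured there. Summed over B cells, Igkc was lower in the treated-labelled library, 5150 against 11410 CPM, a log2 ratio of -1.15. The median B cell held 24 against 28 Igkc UMIs, so the typical cell differed less than the sum. In barcodes of neither class Igkc stood at 607 against 2442 CPM.

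Family 2 genes took a larger share of the Igkv UMIs in B cells than in plasma cells. Igkv2-109 held 19 UMIs in 18 B cells of each library, 9.95% and 5.29% of the B cells' Igkv UMIs, against 0.689% and 1.21% of those of plasma cells. By share of cells, B cells stood below plasma cells in both libraries. Igkv2-109 was found in 18 of 1097 and 18 of 1901 B cells. Among plasma cells assigned to other genes, which were at greater depth, Igkv2-109 was found in 15 of 190 (7.89%) and 28 of 518 (5.41%). In barcodes of neither class it held 3 and 2 UMIs. The nearby pseudogene Igkv2-107 held 9 and 10 UMIs in B cells, each in a cell of its own, and 2 and 3 UMIs in plasma cells. Pseudogenes as a whole held 4.71% and 4.18% of the Igkv UMIs of B cells. These counts are small, and with 1 UMI per cell for most of them they assign no cell to a gene.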

How the data were processed

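The deposited values are UMI counts per gene and barcode, not normalized, per the file headers. The labels' protocols name the 10x Genomics Chromium Single Cell 3′ kit, and the submitters' processing notes name Cell Ranger 3.1.0, Seurat 4.4.0 and mm10, while the file headers give Cell Ranger 7.2.0. Which of them made the counts, and whether introns were included, is unknown here. The libraries held 13155 (treated) and 12516 (control) barcodes with 77856529 and 88567528 UMIs. They shared 45 barcode sequences, 0 of them between their plasma cells. The members, lists and cell rules were chosen with earlier results of these data known. The Ighv minimum of 2 UMIs was chosen after seeing the data.

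Barcodes that met both rules counted as plasma cells (464 and 1533 of the plasma cells also met the B cell rule). Cells were assigned to V genes as the report states, shares have exact Clopper-Pearson intervals, and the number of genes expected in fewer cells was computed exactly. For CPM ratios a count of 0 was set to 3. Doublets were called with Scrublet in scanpy 1.11.5, which marked 505 (3.84%) and 463 (3.70%) barcodes, 19 and 106 of them plasma cells. They were kept, and left out in an alternative. Named genes are the 10 with the most assigned plasma or B cells in each library, the 5 highest and 5 lowest ratios of share among genes with at least 20 assigned cells, and listed known genes. Pairs, second genes and genes that stand out in B cells were chosen after their values were seen. Alternatives changed the minimum, the majority needed, the cell rules, doublets, barcodes with markers of other cell types and depth. All 160 Igkv identifiers matched GENCODE vM21 on GRCm38, from which positions and V exons come. Promoters of these genes were not analysed here, and 1 other list of genes is not reported here. Python 3.11.15, numpy 2.4.6, scipy 1.17.1, pandas 2.3.3 and Biopython 1.88 were used. The assignment was tested on simulated data in which each cell drew most of its Igkv UMIs from 1 gene, so right calls were largely fixed in advance. Mixed droplets and reads misplaced between related genes were not simulated.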

Additional observations from a re-analysis of the deposited data

How the results depend on the processing

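No paired analysis was possible because each group is 1 library. Values are given as treated, then control. Igkv1-110, Igkv1-117, Igkv3-2 and Igkv9-120 kept the higher share in the control-labelled library, and Igkv4-91, Igkv1-135 and Igkv6-15 in the treated-labelled library, under the 8 alternatives run for each. Igkv6-20 reversed its order at a minimum of 20 Igkv UMIs, 6 of the 16 named genes reversed under at least 1 alternative, and Igkv8-30 was at 0 in both libraries under 1. At that minimum 13.7% and 12.2% of plasma cells were assigned, Igkv4-91 held 4.41% and 2.09%, Igkv1-110 held 30.4% in the control-labelled library, with an inverse Simpson index of 8.21, its pair with Ighv1-81 held 28.1%, and the pair of Igkv4-91 with Ighv1-26 held 1.61% and 0%. At a minimum of 3, 66.8% and 69.1% were assigned, Igkv4-91 held 18.7% and 8.70%, Igkv1-110 held 11.2% in the control-labelled library, and the pairs held 14.4% and 5.92% (Igkv4-91) and 10.8% (Igkv1-110, control). With 80% of UMIs in 1 gene, 29.8% and 28.5% were assigned, and with Jchain and Mzb1 at 100 UMIs or more 46.5% and 39.8%. Without barcodes holding 2 UMIs of T cell, macrophage or neutrophil markers, 69 and 402 plasma cells were left, of which 31.9% and 30.1% were assigned, and Igkv4-91 held 18.2% and 7.44%. Thinned to 2000 UMIs per cell, 1.21% and 0% were assigned, too few for shares. With a minimum of 3 added after seeing the data, 10.3% and 10.7% were, Igkv4-91 held 5.88% (treated), Igkv1-110 held 24% (control), the inverse Simpson index was 33.6 (treated), and the pair of Igkv4-91 with Ighv1-26 held 0% (control). With at least 10 Ighv UMIs, also added later, that pair held 0% in both, and Igkv1-110 with Ighv1-81 held 0% in the treated-labelled library. As a mean over cells, Igkv4-91 held 16.6% of UMIs (treated) and Igkv1-110 held 9.91% (control). With genes of 20 UMIs or more measured, 1096 genes were at least 2-fold apart in plasma cells and 460 in B cells. The few Igkv UMIs per cell limit these results.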
